A study of Homo sapiens with 18 samples.

Results

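SNORD118, SNORD3A, SNORD13, SCARNA2 and TERC are short noncoding RNA genes that RNA polymerase II (Pol II) transcribes from promoters of their own. They were taken by name from the RefSeq annotation of GRCh38.p14 and are 5 of its 59080 genes on chromosomes 1 to 22 and X. All deposited peaks within 3 kb of each gene were read in every immunoprecipitated library. Positions are given in bp from the gene start, with positive values in the direction of transcription. SNORD118 (U8 snoRNA, 137 bp, minus strand) lies on chromosome 17 at 8173452 to 8173588, within the span of the protein-coding gene TMEM107 (8172457 to 8176380), which has the same strand. The lncRNA gene LOC105371520 lies on the other strand, with its near end at −522 bp. SNORD3A (U3 snoRNA, 217 bp, plus strand) lies on chromosome 17 at 19188016 to 19188232, and another U3 copy, SNORD3C, lies 2013 to 2229 bp from its start. SNORD13 (U13 snoRNA, 104 bp, plus strand) lies on chromosome 8 at 33513475 to 33513578, and the protein-coding gene TTI2 comes to within 340 bp of its start on the upstream side. SCARNA2 (420 bp, plus strand) lies on chromosome 1 at 109100193 to 109100612, and TERC (451 bp, minus strand) on chromosome 3 at 169764610 to 169765060, where the protein-coding gene ACTRT3 has its near end at −1861 bp on the same strand. The strands of the 5 genes were written down from general knowledge.

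Most human small nucleolar RNAs (snoRNAs) are cut out of the introns of host transcripts. The genes described here instead begin transcription at their own promoters, and those of U3, U8 and U13 resemble the promoters of spliceosomal small nuclear RNA (snRNA) genes. Nascent snRNA transcripts are cleaved a short way past the end of the mature RNA by Integrator, a complex whose endonuclease subunit is INTS11, after which the RNA is trimmed and bound by its partner proteins.

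ChIP-seq, the sequencing of DNA recovered with an antibody from crosslinked chromatin, was done in HCT116 INTS11-AID cells, a colon cancer line in which INTS11 carries a degron tag that lets auxin (IAA) trigger its degradation. Every group, Control included, carries this tag, and the labels do not say whether the line is 1 clone or how far INTS11 protein fell. Antibodies were directed at Pol II, at Pol II phosphorylated on tyrosine 1 of its C-terminal repeats (Tyr1P) and at Pol II phosphorylated on serine 2 of these repeats (Ser2P), with 2 numbered Control and 2 numbered IAA libraries for each. There were also 4 Pol II libraries without replicate numbers, whose labels are Control, IAA, EGF (a growth factor) and IAA+EGF, 1 of each, and 2 input libraries without antibody. A single treatment text covers all 18 libraries: 14 h in serum-free medium, IAA at 500 µM for 1 h, interferon beta at 2000 U for 1 h and EGF at 100 ng/µl for 30 min. It does not assign these treatments to libraries, so groups follow the titles. For the unnumbered libraries labelled IAA and EGF the title and the name of the deposited peak list disagree, each list carrying the other's treatment. They are called by their titles below, and each Pol II count is also given with the unnumbered Control and IAA libraries added. These added values depend on the titles. The same values with the library titled EGF in place of that titled IAA were not computed.

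Deposited lists held 22898 and 27929 peaks for Pol II Control, 18263 and 23609 for Pol II IAA, 30461 to 38821 for Tyr1P, and 15420 and 37442 for Ser2P Control against 99476 and 88987 for Ser2P IAA. Depth estimated from the lists was lowest in Pol II Control replicate 1, at 2.94 fragments per kb, and highest in the first Ser2P Control library, at 13.6. The input lists held 1579 and 1004 peaks, 0 of them within 3 kb of any of the 5 genes. Of 8 marker genes of intestinal epithelium, 6 (CDX2, EPCAM, CDH1, KRT8, KRT18 and KRT19) had a Pol II summit within 1 kb in all 4 numbered Pol II libraries, and 0 of 8 markers of blood, fibroblasts, liver and neural cells did. The labels number the replicates without saying whether they were separate cultures, so p-values measure only the spread between these libraries. With 2 libraries against 2, a two-sided exact permutation test cannot go below p = 0.333.

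With IAA the summits at the 3 independently transcribed C/D snoRNA genes lay farther downstream, past the end of the RNA, with each of the 3 antibodies. SNORD118, SNORD3A and SNORD13 moved by 405, 926.5 and 507.5 bp for Pol II. The summits at SCARNA2 stayed within 56 bp of the gene start in every numbered library. At TERC a summit remained near the start in 5 of 6 IAA libraries, and a separate peak lay past the gene end in all 6. A gene was called downstream when the nearest summits of both IAA libraries lay at least 100 bp beyond those of both Control libraries. By this rule 3 of the 5 genes were downstream for Pol II, where 8.69% of all RefSeq genes with a known strand and a summit in all 4 libraries were (929 of 10687). For Tyr1P the count was also 3 of 5, against 7% of such genes, and for Ser2P 3 of 5, against 7.35%. Of the 5 genes 0 were called upstream with any antibody, the shares over all genes being 7.44%, 5.63% and 5.51%. With the unnumbered Control and IAA libraries added, 0 of the 5 genes met the rule for Pol II.

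**Figure D1:**
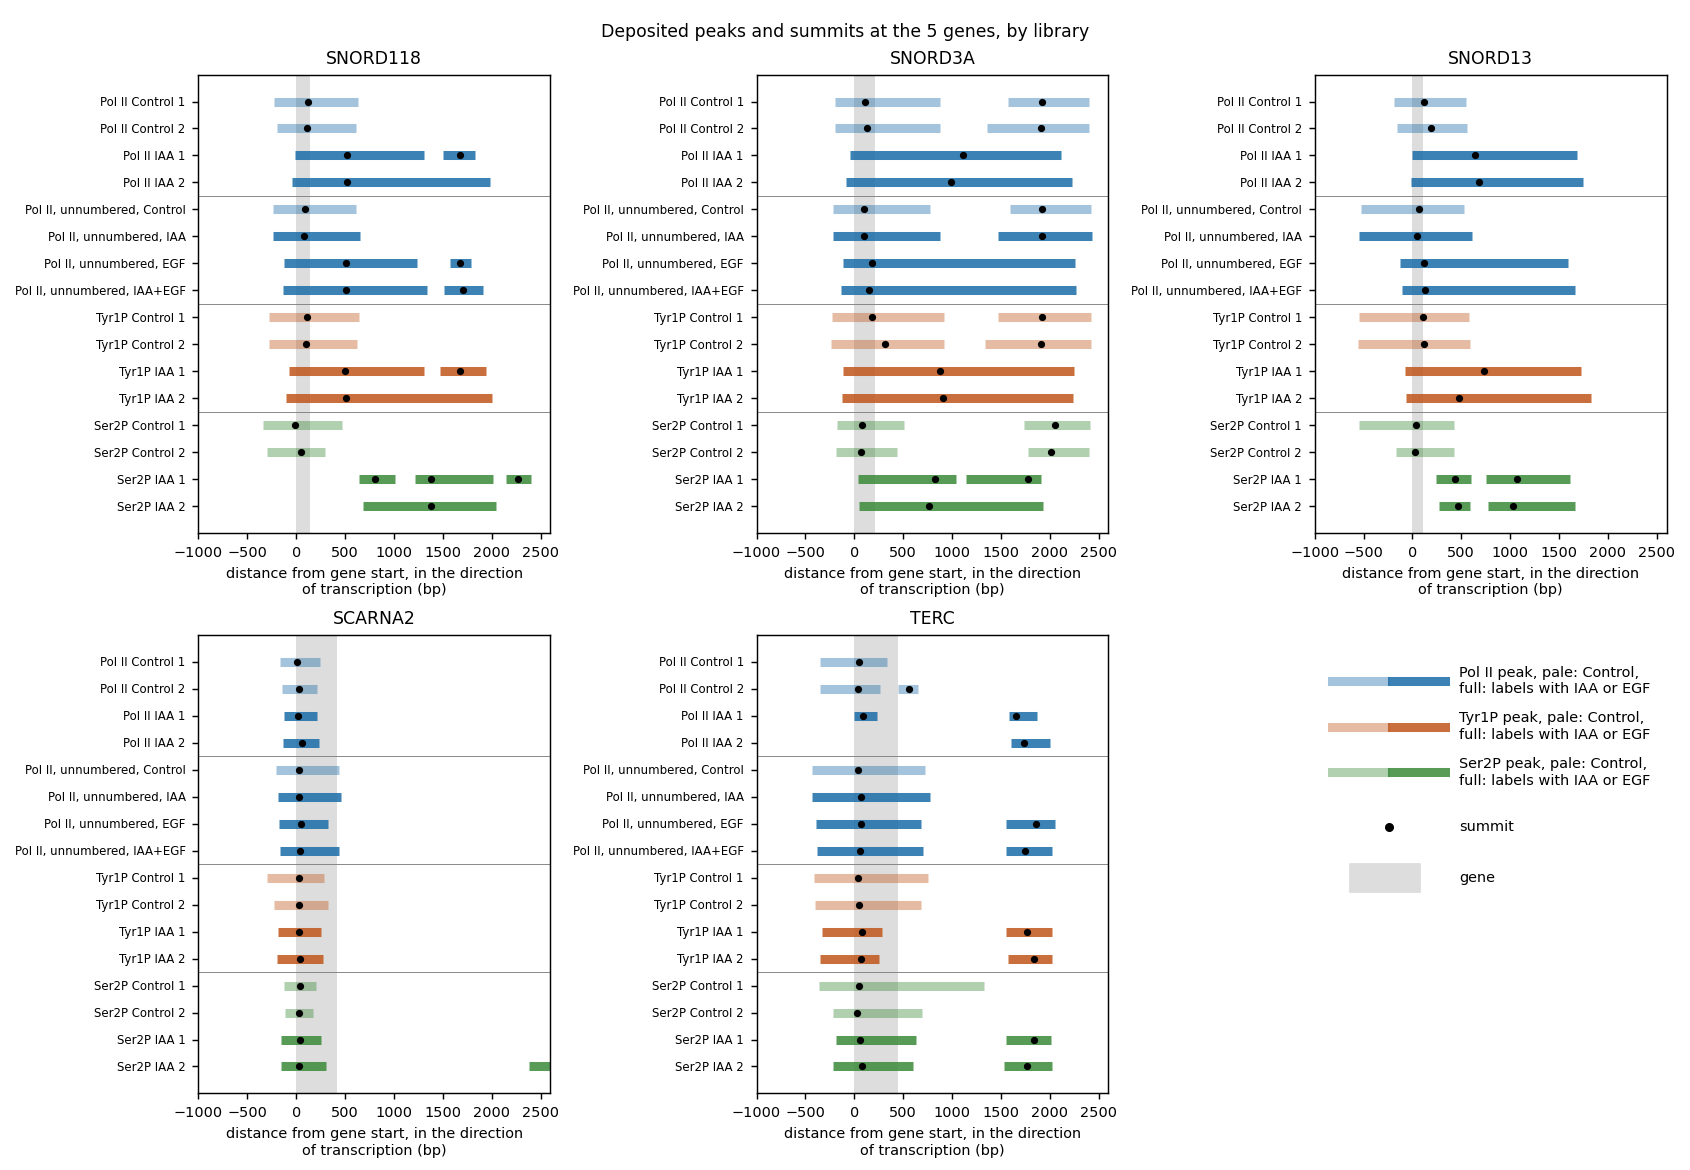
Deposited peaks (bars) and their summits (black points) in each library, plotted by distance in bp from the gene start in the direction of transcription, with the gene in grey. In the numbered IAA libraries the bars at SNORD118, SNORD3A and SNORD13 extend past 1 kb downstream, TERC has a further peak between about 1.5 and 2 kb, and the SCARNA2 bars on the gene keep their place.

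SNORD118 encodes the U8 snoRNA, which is required for maturation of the large-subunit ribosomal RNAs. Its nearest Pol II summit lay 121 and 107 bp from the gene start in Control replicates 1 and 2, that is within the RNA, and 522 and 516 bp from it in IAA replicates 1 and 2. The means were 114 ± 9.90 bp and 519 ± 4.24 bp (both SD, n = 2), and the groups did not overlap (exact permutation p = 0.333). Tyr1P summits lay almost at the same places, at 114 and 105 bp in Control and 502 and 507 bp with IAA. Ser2P summits lay at −10 and 50 bp in Control and at 811 and 1375 bp with IAA, farther downstream than those of the other antibodies in the same condition.

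The extent of the SNORD118 peak moved at both edges. In Control the Pol II peak ran from −228 to 636 bp and from −198 to 616 bp. With IAA replicate 1 it ran from −8 to 1309 bp, with a further peak from 1501 to 1833 bp, and with IAA replicate 2 as 1 peak from −39 to 1982 bp. The farthest edge past the gene end was thus 500 and 480 bp in Control and 1697 and 1846 bp with IAA, a difference of 1281.5 bp (exact permutation p = 0.333). Reach differed by 1339.5 bp for Tyr1P and 1839 bp for Ser2P, and the groups again did not overlap (exact permutation p = 0.333 for each).

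For Ser2P no IAA library had a peak over SNORD118 itself. In Control the Ser2P peaks covered the gene, from −336 to 468 bp and from −303 to 299 bp. With IAA replicate 1 the first downstream peak began at 645 bp, followed by others from 1213 to 2011 bp and from 2144 to 2401 bp, and with IAA replicate 2 a single peak ran from 683 to 2044 bp. TMEM107 ends 1131 bp from the SNORD118 start on the same strand, so Pol II from TMEM107 and from SNORD118 cannot be told apart in this stretch. Near the start of TMEM107, at −2792 bp, a peak was listed in both Ser2P IAA libraries, with summits at −2911 and −2894 bp, and also in Tyr1P Control replicate 2 (summit at −2911 bp) and in the unnumbered Pol II libraries labelled Control (−2910 bp) and IAA (−2923 bp). The 4 numbered Pol II libraries listed none there.

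Within its own list the SNORD118 peak ranked very high in Control. Ranked by the authors' deposited −log10 q, it was number 6 of 22898 and number 7 of 27929 Pol II peaks in the Control replicates, with deposited folds of 17.3 and 15.6. In the IAA lists the peak on the gene was number 52 of 18263 and number 132 of 23609, with deposited folds of 8.38 and 7.35. These folds and ranks are the authors' values, belong to each list and were not tested between libraries.

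SNORD3A encodes the U3 snoRNA, which takes part in the early cleavages that release small-subunit ribosomal RNA. Its nearest Pol II summit lay at 109 and 135 bp in Control, inside the gene, and at 1108 and 989 bp with IAA. The means were 122 ± 18.4 bp and 1048.5 ± 84.1 bp (both SD, n = 2), the groups did not overlap, and the difference was 926.5 bp (exact permutation p = 0.333). Tyr1P summits lay at 177 and 312 bp in Control and 877 and 911 bp with IAA, and Ser2P summits at 83 and 67 bp in Control and 829 and 767 bp with IAA. With every antibody the IAA summits fell in the interval between SNORD3A and SNORD3C. The Pol II summits with IAA lay 905 and 1024 bp from SNORD3C, so Pol II from SNORD3A and from SNORD3C cannot be told apart there.

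In Control, SNORD3A and SNORD3C each had a Pol II peak of its own. The peaks on SNORD3A ran from −201 to 882 bp and from −197 to 882 bp, and those on SNORD3C from 1574 to 2403 bp and from 1353 to 2406 bp. With IAA a single Pol II peak covered the whole interval, from −46 to 2113 bp and from −81 to 2232 bp, and Tyr1P likewise had 1 peak, from −114 to 2245 bp and from −126 to 2240 bp. Ser2P had 2 peaks in IAA replicate 1, from 34 to 1044 bp and from 1145 to 1915 bp, and 1 peak from 46 to 1935 bp in IAA replicate 2. The farthest edge within the window lay nearer with IAA, by 232 bp for Pol II, because the Control value is the far edge of the SNORD3C peak. Counting the peak that overlaps SNORD3A alone, the reach past the gene end was 666 and 666 bp in Control and 1897 and 2016 bp with IAA. U3 copies are near-identical, so reads from SNORD3A and SNORD3C may have been assigned to either copy or dropped, and values at both are uncertain in that respect.

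SNORD3A held the highest-ranked Ser2P peak of the 5 genes. In Control its Ser2P peak was number 4 of 37442 and number 80 of 15420 by deposited −log10 q, with deposited folds of 12.1 and 12.8. For Pol II its peak was number 78 of 22898 and number 272 of 27929 in Control and number 26 of 18263 and number 367 of 23609 with IAA.

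SNORD13 encodes the U13 snoRNA, which guides modification of small-subunit ribosomal RNA. Its nearest Pol II summit lay at 117 and 191 bp in Control, just past the end of this 104 bp gene, and at 638 and 685 bp with IAA. The means were 154 ± 52.3 bp and 661.5 ± 33.2 bp (both SD, n = 2), with no overlap (exact permutation p = 0.333). Tyr1P summits lay at 110 and 122 bp in Control and at 730 and 475 bp with IAA. Ser2P summits lay at 41 and 28 bp in Control and at 432 and 471 bp with IAA. All 6 IAA summits of SNORD13 therefore lay at least 353 bp farther downstream than the Control summits of the same antibody.

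The SNORD13 peaks became longer downstream and shorter upstream. Pol II peaks ran from −190 to 547 bp and from −158 to 563 bp in Control, and from −5 to 1686 bp and from −17 to 1740 bp with IAA. Tyr1P peaks began at −548 and −553 bp in Control, past the near end of TTI2, and at −75 and −70 bp with IAA. For Ser2P the gene was covered in both Control libraries and in neither IAA library, where the peaks ran from 239 to 603 and 750 to 1610 bp in replicate 1 and from 272 to 589 and 778 to 1664 bp in replicate 2. The stronger of the Ser2P peaks in each IAA library was the farther, with summits at 1069 and 1026 bp and deposited folds of 9.13 and 9.51, against 4.85 and 3.86 for the nearer peak. Taking the strongest peak in place of the nearest, the Ser2P difference at SNORD13 was 1013 bp instead of 417 bp.

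**Figure D2:**
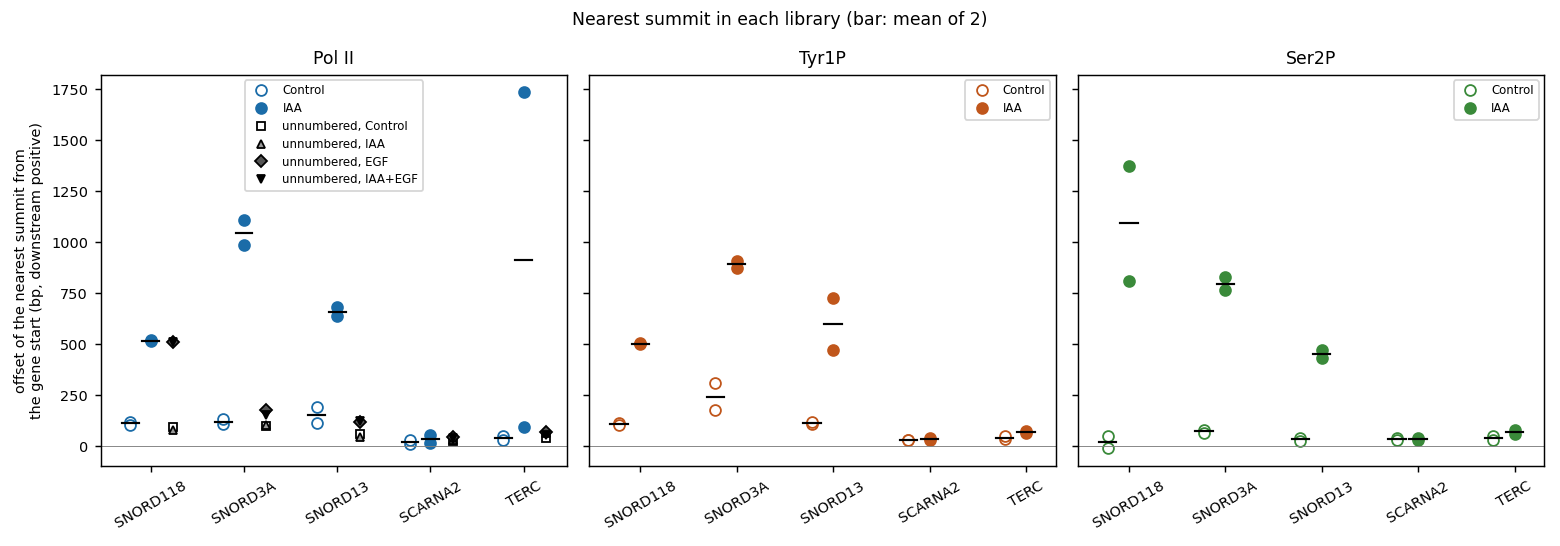
Offset of the nearest summit from the gene start (bp, downstream positive) for each gene and antibody, with open circles for Control, filled circles for IAA, other symbols for the unnumbered Pol II libraries and bars for the mean of 2 numbered libraries. Filled circles stand clear above open circles at SNORD118, SNORD3A and SNORD13 with each antibody, and lie among them at SCARNA2.

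Set against the shift of all genes with a known strand, these differences lay in the upper tail. The median shift over 10687 genes was 30 bp for Pol II, with the 95th percentile at 389.5 bp and the 99th at 899 bp. The Pol II shift was 405 bp at SNORD118 and 507.5 bp at SNORD13, both above the 95th percentile, and 926.5 bp at SNORD3A, above the 99th. The SNORD3A value rests on summits between SNORD3A and SNORD3C and may not belong to SNORD3A alone. For Tyr1P the shifts of 395, 649.5 and 486.5 bp at SNORD118, SNORD3A and SNORD13 lay between the 95th percentile (355 bp) and the 99th (854 bp). For Ser2P the 95th percentile was 524 bp. SNORD118 (1073 bp) and SNORD3A (723 bp) lay above it and SNORD13 (417 bp) below it.

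**Figure D3:**
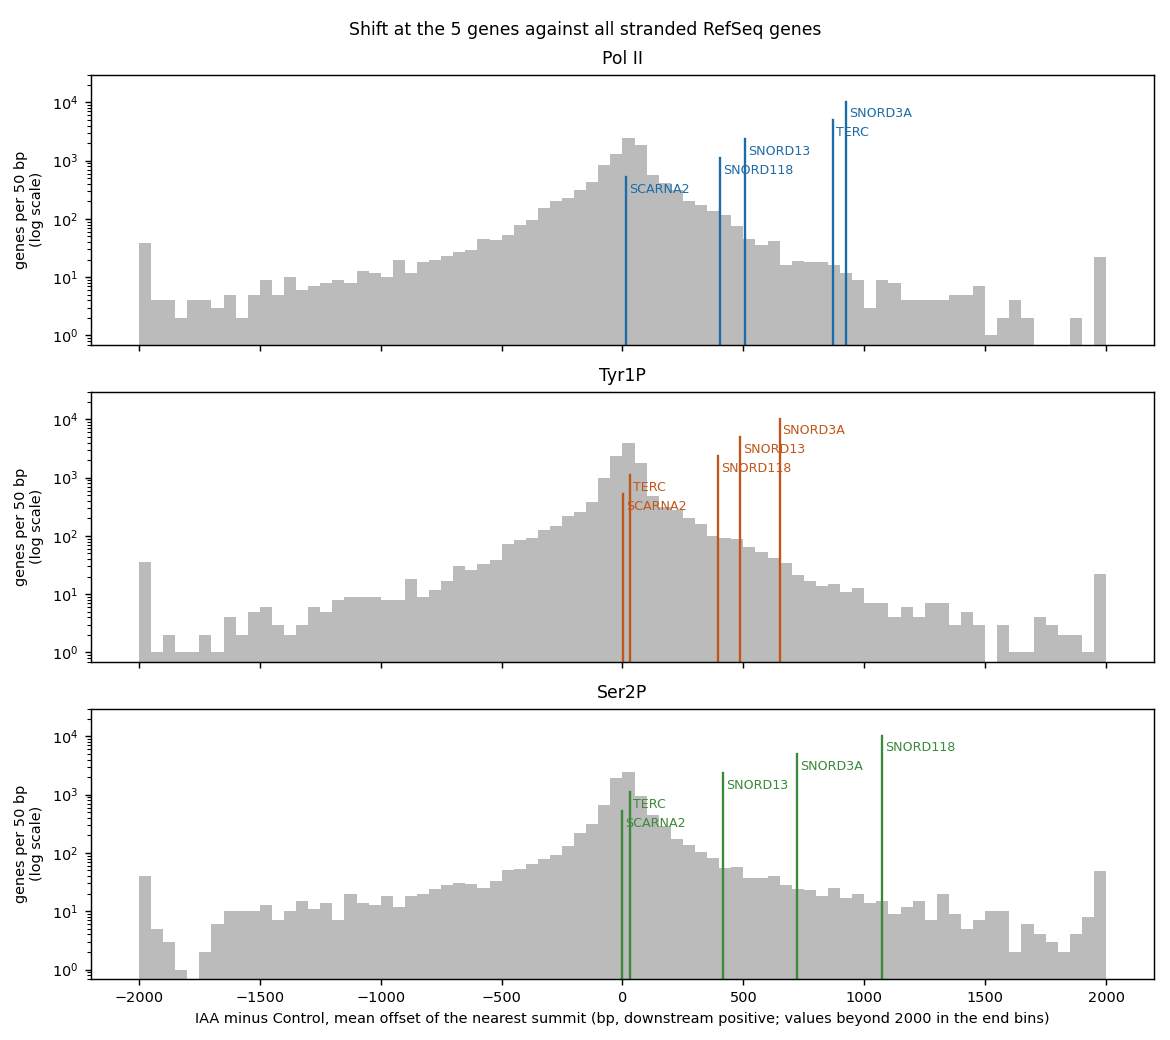
Number of stranded RefSeq genes (log axis) by the IAA minus Control difference of the mean nearest-summit offset in bp, in bins of 50 bp, with vertical lines for the 5 genes whose heights serve only to separate the names. SNORD118, SNORD3A and SNORD13 lie to the right of most genes for each antibody, SCARNA2 lies at the centre, and TERC lies to the right for Pol II alone, where 1 library sets its value.

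SCARNA2 encodes a small Cajal body RNA that guides modification of the U2 snRNA. Its nearest Pol II summit lay at 13 and 32 bp in Control and at 19 and 56 bp with IAA, so the groups overlapped (exact permutation p = 0.667). Tyr1P summits lay at 32 and 31 bp in Control and 32 and 39 bp with IAA, and Ser2P summits at 41 and 32 bp in Control and 39 and 32 bp with IAA. The shifts were 15, 4 and −1 bp. No SCARNA2 summit on the gene lay farther than 56 bp from its start in any of the 12 numbered libraries.

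The width of the SCARNA2 Pol II peak overlapped between the groups. It measured 417 and 367 bp in Control and 340 and 372 bp with IAA, and its downstream edge stayed inside the gene, at 246 and 217 bp in Control and 214 and 239 bp with IAA. Tyr1P peaks ended at 280 and 324 bp in Control and 252 and 274 bp with IAA. Ser2P peaks on the gene ended at 199 and 174 bp in Control and at 257 and 308 bp with IAA. Away from the gene, Ser2P had a further small peak with IAA alone, from 2639 to 2869 bp in replicate 1 and from 2380 to 2822 bp in replicate 2. A Ser2P peak over the pseudogene LOC100420092, which starts 3055 bp downstream, was present in all 4 libraries.

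TERC encodes the RNA that serves as the template of telomerase. Its nearest Pol II summit lay at 51 and 34 bp in Control. With IAA it lay at 94 bp in replicate 1, whereas replicate 2 had no peak on the gene and its nearest summit lay at 1736 bp. The difference of 872.5 bp therefore rests on that library: without IAA replicate 2 it was 51.5 bp, and without IAA replicate 1 it was 1693.5 bp. Tyr1P summits lay at 35 and 51 bp in Control and 78 and 67 bp with IAA, and Ser2P summits at 50 and 32 bp in Control and 63 and 83 bp with IAA. These small displacements of 29.5 and 32 bp did not overlap between groups (exact permutation p = 0.333 for each) but stayed under the 100 bp rule.

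What set the IAA libraries apart at TERC was a separate downstream peak. For Pol II it ran from 1582 to 1865 bp and from 1601 to 2004 bp. For Tyr1P it ran from 1555 to 2020 bp and from 1571 to 2024 bp, and for Ser2P from 1550 to 2010 bp and from 1527 to 2023 bp. The summits of these 6 peaks fell between 1659 and 1842 bp. Of the 6 numbered Control libraries 0 listed a separate peak there, and the Control peaks on the gene ended at 751 bp or before in all but Ser2P Control replicate 1, where the peak ended at 1324 bp. Pol II Control replicate 2 also had a peak from 448 to 647 bp, across the gene end, and Tyr1P IAA replicate 1 one from 3071 to 3330 bp. Within the lists the downstream peak was weak for Pol II, number 12754 of 18263 and number 18339 of 23609, and stood higher for Ser2P, number 5967 of 99476 and number 7124 of 88987.

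A peak 1 to 2 kb past the gene end was therefore counted for all 5 genes, a measure added after the values were seen. SNORD118, SNORD13 and TERC had such a peak in 6 of 6 IAA libraries and 0 of 6 Control libraries. This gives 3 of 5 genes with a peak gained in both IAA and neither Control library for each antibody. Over all stranded genes with a summit near the start in both Control libraries the share was 0.317% for Pol II (40 of 12605), 0.754% for Tyr1P (104 of 13784) and 10.5% for Ser2P (974 of 9301). The reverse change was made by 1.41%, 2.36% and 1.44% of genes and by 0 of the 5. The genes behind these shares were not matched for length, and in a long gene this window lies far from the start. The 5 genes measure 104 to 451 bp, so the shares are not a like-for-like background. SNORD3A had a peak in this window in all 12 libraries, since SNORD3C lies there. SCARNA2 had one in 0 Control libraries and 1 IAA library, Ser2P replicate 2. With the unnumbered Control and IAA libraries added by title, 0 of the 5 genes gained such a Pol II peak. The library labelled EGF, whose deposited list carries IAA in its name, had this peak at SNORD118, SNORD13 and TERC. The unnumbered Control library had it at none of these genes. The Ser2P IAA lists were also the longest, with 88987 and 99476 peaks, and the part of list length in the Ser2P count was not tested.

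Loss of the peak over the gene start was seen for Ser2P. At SNORD118, SNORD3A and SNORD13 both Control libraries and neither IAA library had a Ser2P peak over the start, the SNORD3A peaks beginning 34 and 46 bp inside the gene. That is 3 of 5 genes, against 0.843% of all stranded genes with such a peak in both Control libraries (52 of 6167). For Pol II the count was 0 of 5, against 17.4%, also with the unnumbered libraries added, and for Tyr1P 0 of 5, against 6.67%. Without Pol II IAA replicate 1 the Pol II count was 1 of 5, TERC. This measure too was added after the values were seen.

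In the numbered Pol II and Tyr1P libraries the upstream edge of the start peaks drew closer to the gene. For Pol II, 4 of the 4 genes with a start peak in all 4 libraries reached less far upstream with IAA, and for Tyr1P 5 of 5 did. This change was common over all genes, at 40% for Pol II and 39.8% for Tyr1P, while 23.3% and 24.7% reached farther. For Ser2P 0 of the 2 genes with a start peak in all 4 libraries reached less far, against 10.2% of all genes, and 1 of the 2, SCARNA2, reached farther, against 56.5%. With the unnumbered libraries added, the Pol II count was 0.

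The height of the peak over the gene start was compared as the number of stacked fragments divided by the genome-wide background of the same library, both solved from the deposited fold and −log10 p. In bulk cells a lower stack on each gene and fewer cells with Pol II on it cannot be told apart. Over all stranded genes with a start peak in all 4 libraries, the median ratio of IAA to Control was 0.605 for Pol II, 0.561 for Tyr1P and 1.92 for Ser2P, which is the background to the values of the 5 genes. The stack was lower with IAA, groups not overlapping, at 66.9% of all such genes for Pol II and 90.5% for Tyr1P, and higher at 91.8% for Ser2P. The opposite changes were made by 6.15%, 2.28% and 0.791%.

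At SCARNA2 the Pol II stack was 233 and 184 times the background in Control and 44.5 and 60.8 times with IAA. The means were 209 ± 34.3 and 52.7 ± 11.5 (both SD, n = 2), a ratio of 0.252 with no overlap (exact permutation p = 0.333), which lay under the 5th percentile of all genes (0.307). At TERC it was 201 and 161 times in Control and 39.5 times in the single IAA library with a peak on the gene, a ratio of 0.218. The genes behind the percentiles have a start peak in all 4 libraries, so TERC has no place among them. For Tyr1P the ratios were 0.478 at SCARNA2 and 0.373 at TERC, both above the 5th percentile of all genes (0.351). With the unnumbered Control and IAA libraries added, the Pol II ratios were 0.537 at SCARNA2, 0.675 at TERC, 0.678 at SNORD118, 0.673 at SNORD13 and 0.785 at SNORD3A. TERC then stood between SNORD13 and SNORD118.

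At the C/D snoRNA genes the stacks were higher and in part near the highest possible under 2 fragments per position, which can hold a value down. At SNORD118 the stack was 625 and 344 times the background in Control and 257 and 297 times with IAA, a ratio of 0.571, with the Control stacks at 91.8% and 98.5% of that limit and the IAA stacks at 64.8% and 89.9%. At SNORD13 it was 432 and 301 times in Control and 178 and 231 times with IAA, a ratio of 0.558. At SNORD3A the Control values of 672 and 350 and the IAA values of 394 and 330 overlapped (ratio 0.708, exact permutation p = 0.667), and without Control replicate 1 the ratio was 1.04. The SNORD3A stacks stood at 98.7% to 100% of the limit, so its ratio cannot be read as a difference in height. For Tyr1P the ratios were 0.637 at SNORD118, 0.892 at SNORD3A and 0.655 at SNORD13, each lower in both IAA libraries than in both Control libraries (exact permutation p = 0.333 for each). The Tyr1P Control stacks stood at 96.9% and 97.2% of the limit at SNORD118 and at 98.1% and 98.4% at SNORD3A, where the IAA stacks stood at 94.0% and 92.8%. These ratios are set in part by the limit and were not placed against all genes.

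For Ser2P the start peaks that remained were higher with IAA. At SCARNA2 the Ser2P stack was 60.1 and 63.0 times the background in Control and 116 and 94.8 times with IAA (ratio 1.71), and at TERC it was 40.5 and 51.3 times in Control and 82.8 and 63.6 times with IAA (ratio 1.59). Both groups were apart (exact permutation p = 0.333 for each), and both ratios were below the median of all genes, 1.92.

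**Figure D4:**
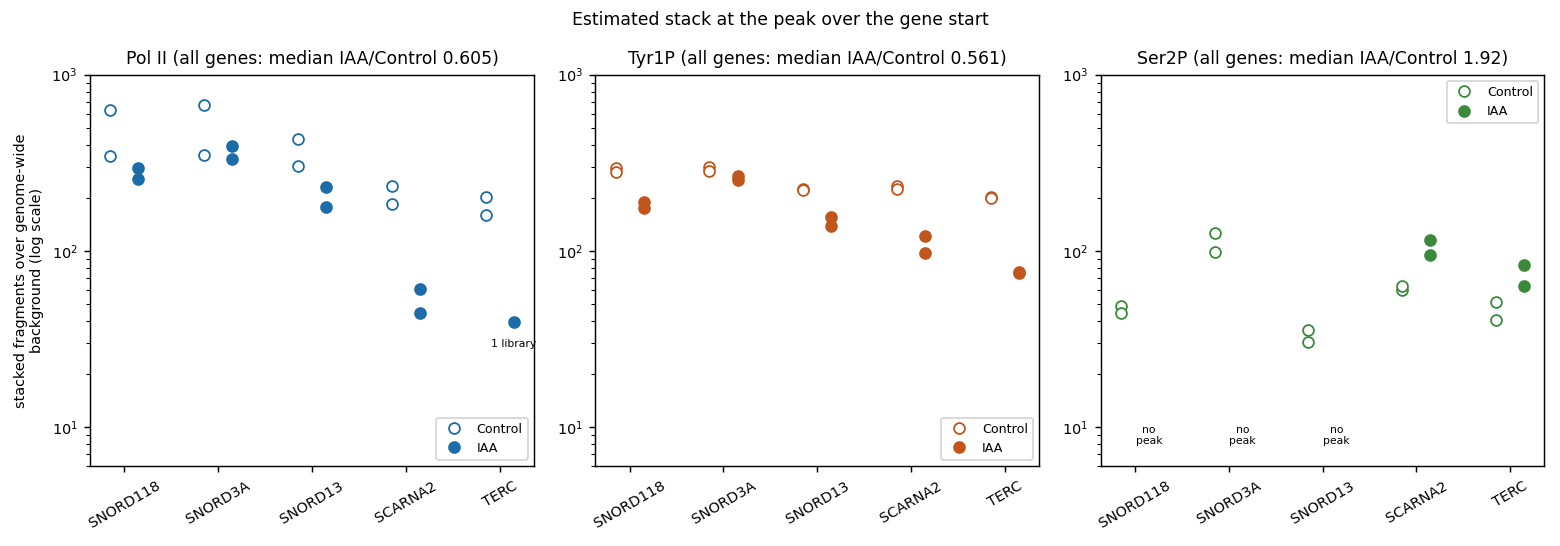
Stacked fragments at the peak over the gene start, divided by the genome-wide background of the library (log axis), for each gene with open circles for Control and filled circles for IAA, and the median ratio over all genes in each title. SCARNA2 and TERC show the widest gap for Pol II, the SNORD3A values overlap for Pol II, and no Ser2P peak covered the start of SNORD118, SNORD3A or SNORD13 with IAA.

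The unnumbered Pol II libraries were described without a test. At SNORD118 the nearest summit lay at 94 bp in the library labelled Control, 79 bp in that labelled IAA, 513 bp in that labelled EGF and 511 bp in that labelled IAA+EGF. At SNORD3A the corresponding offsets were 102, 103, 178 and 154 bp, and at SNORD13 63, 45, 122 and 127 bp. The peaks on SNORD13 ended at 532 and 612 bp for the labels Control and IAA and at 1596 and 1662 bp for EGF and IAA+EGF. On SNORD3A they ended at 776 and 875 bp against 2259 and 2270 bp. The downstream TERC peak was present for the labels EGF (1551 to 2056 bp) and IAA+EGF (1557 to 2026 bp) and absent for Control and IAA. At these 4 genes the library labelled IAA thus resembled the numbered Control libraries in downstream extent. The libraries labelled EGF and IAA+EGF resembled the numbered IAA libraries in downstream extent, but in nearest summit only at SNORD118. At SNORD3A and SNORD13 their summits lay closer to those of the numbered Control libraries. At TERC their nearest summits lay at 73 bp (EGF) and 57 bp (IAA+EGF), on the gene. SCARNA2 summits lay between 27 and 45 bp in all 4.

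Other short noncoding genes were set beside these 5, in lists assembled with earlier results of these data known. RefSeq strand was missing for most of them here, so the distance from the nearer gene end to the nearest summit was used, with the same 100 bp rule. By this measure the 5 genes had 3 called farther for each antibody, where 8.79% of all RefSeq genes were called farther for Pol II, 6.70% for Tyr1P and 3.80% for Ser2P. None of the 5 was called nearer, where 4.83%, 4.64% and 9.99% of all genes were. Their median Pol II difference was 507.5 bp, against 41.5 bp over all genes. With the unnumbered Control and IAA libraries added, the Pol II count was 0 in each list described here except the other snoRNA and scaRNA genes (2 of 144), and 0.392% over all genes (60 of 15310). Among genes of at most 600 bp the shares called farther were 14.3%, 9.94% and 10.8%, and those called nearer 8.65%, 7.26% and 13.8%.

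Of 19 other genes with snRNA-type promoters, 18 were called farther for Pol II, 16 for Tyr1P and 13 for Ser2P, and 0 nearer. The median Pol II difference was 570 bp. The largest was at RNU2-2 (U2 snRNA), from 32 and 132 bp in Control to 2481 and 2480 bp with IAA, followed by RNU4-1 (U4 snRNA), from 11 and 26 bp to 2077 and 1900 bp. The smallest were at RNU1-2 (U1 snRNA), from 197 and 239 bp to 447 and 384 bp, and at SCARNA17, a small Cajal body RNA like SCARNA2, from 33 and 11 bp to 241 and 140 bp. A large value can also arise where the nearest summit passes from 1 peak to another. At RNU4-1 the nearest Tyr1P summits already lay at 1285 and 1287 bp in Control.

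All 4 further U3 copies were called farther with each antibody. For Pol II, SNORD3B-2 went from 53 and 51 bp to 931 and 976 bp, SNORD3D from 52 and 112 bp to 694 and 751 bp, and SNORD3B-1 from 260 and 288 bp to 861 and 816 bp. SNORD3C went from 91 and 100 bp to 905 and 1024 bp, but its IAA summit is the one already counted for SNORD3A. These copies share sequence, so their values are not independent of each other.

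Genes transcribed by Pol III were also listed. Of 14, 8 had a Pol II summit within 3 kb in all 4 libraries and 2 were called farther, RNU6-9 (U6 snRNA) and RPPH1 (RNase P RNA), which went from 149 and 122 bp to 453 and 461 bp. RNU6-7 and RNU6-8 differed by 3.5 bp each. They lie close together on chromosome 14 and have the same nearest Pol II summits, so their values are not independent. For Tyr1P 2 of 11 were called farther and for Ser2P 0 of 6, with 1 nearer. Differences in frequency between the lists were not tested.

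The 564 other snoRNA and scaRNA genes were a contrast by origin, since most lie in introns of host genes. A Pol II summit lay within 3 kb in all 4 libraries for 144 of them, of which 5 were called farther and 8 nearer, with a median difference of −24.75 bp. For Tyr1P 13 of 177 were farther and 8 nearer, and for Ser2P 14 of 129 were farther and 32 nearer. The extremes for Pol II were SNORD83B, whose nearest summit went from 2621 and 2587 bp to 1382 and 1081 bp, and SNORD36C, from 1267 and 1109 bp to 2530 and 2526 bp. SNORD14B and SNORD138 differed least, by 0.5 and −2.5 bp.

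Of 21 genes for proteins that bind or mature these RNAs, 19 had a Pol II summit in all 4 libraries and 0 were called farther or nearer. For Tyr1P 1 of 21 was farther, WRAP53, whose product carries telomerase RNA and scaRNAs to Cajal bodies, and for Ser2P 1 of 16 was farther and 1 nearer. The Pol II difference was largest at WRAP53 (651 bp, with summits at 704 and 21 bp in Control and 1353 and 674 bp with IAA, which overlap) and at NCBP2, a cap-binding protein (188 bp). It was smallest at COIL, the Cajal body protein coilin (10.5 bp), and at NAF1, an assembly factor of H/ACA RNPs (17 bp).

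**Figure D5:**
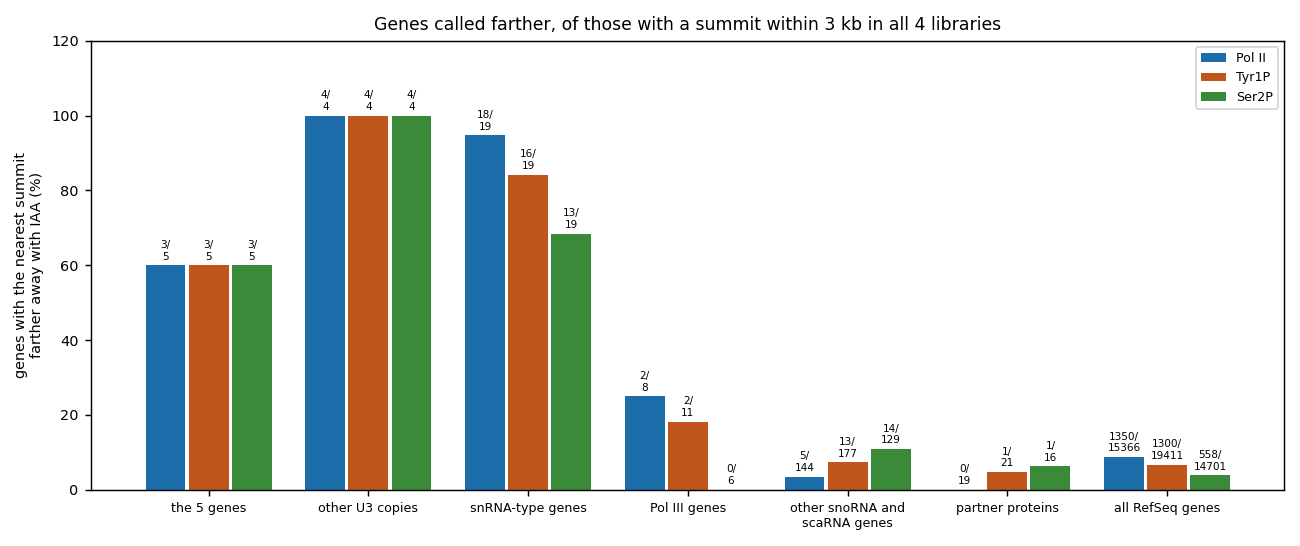
Percent of genes in each list called farther with IAA, of those with a summit within 3 kb in all 4 libraries of the antibody, with the counts above the bars. U3 copies and snRNA-type genes stand at 68.4% or more with each antibody and the 5 genes at 60%, whereas other snoRNA and scaRNA genes, partner protein genes and all RefSeq genes stand at 10.9% or less. Pol III genes stand at 25% for Pol II, 18.2% for Tyr1P and 0% for Ser2P.

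Among stranded RefSeq genes, those whose summit offsets over the 12 numbered libraries were most like the median of the 5 genes were all protein-coding. Most of the short noncoding genes listed above had no strand here, so they could not enter this comparison. Of 8089 stranded genes with a summit in all 12, PARP16, an ADP-ribosyltransferase, had the smallest mean absolute difference, 96.2 bp. Its Pol II summits lay at 74 and 43 bp in Control and 559 and 512 bp with IAA, while its Ser2P summits lay at 90 and 63 bp in Control and 202 and 98 bp with IAA. PISD, phosphatidylserine decarboxylase, followed at 105.5 bp, then HTD2 and RPP14, which share 1 interval in the annotation, at 118 bp each, and SNX7 and DSTYK at 123 bp each.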

How the data were processed

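The 18 deposited ChIP-seq peak lists, 2 of them from inputs, were used. Per the submitters' processing notes processing used MACS2 2.2.7.1, deepTools 3.5.1, Picard 2.25.7, Bowtie2 2.3.4.1 and Trim Galore 0.6.6 with build hg38. How they were run, and whether the inputs served as control, is not given in the sources used here. Since each library has a deposited list of its own, peaks had been called separately in each. A deposited peak has a score, a fold enrichment, a −log10 p, a −log10 q and a summit position. These deposited values describe a peak within its own list only.

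Chromosomes other than 1 to 22 and X were left out. Peaks sharing a base with an input peak were also left out (0.331% to 2.84% of a list). Stacked fragments and local background were solved from the deposited fold (a ratio of fragments to background after adding 1 to each) and the −log10 p (a Poisson tail). Every peak was solved, with a tolerance of 0.0002. The lowest background shared by at least 10 peaks was taken as the genome-wide one, and divided by the shortest peak width it gave the depth. On 5000 simulated peaks the solution was right for 100%. Of 200 genes with a simulated downstream move for Pol II 90.5% were found, and 0.984% of 12405 unmoved genes were called downstream. All simulated moves had the same size, and the noise came from the Pol II Control libraries alone. Smaller moves, and the noise, depth and list length of the IAA libraries, were not covered. Positions came from RefSeq on GRCh38.p14. Differences were tested by two-sided exact permutation of the libraries, with Python 3.11.15, NumPy 2.4.6, pandas 2.3.3 and SciPy 1.17.1. Wide peaks, deep libraries and long lists can each move an edge or a summit. Alternatives covered the window, a −log10 q minimum, lists of equal length, peak midpoints, input overlap, single libraries and the replicate numbers. Over genes, deviations of same-numbered libraries correlated at 0.00889 for Pol II, −0.0302 for Tyr1P and 0.0191 for Ser2P, and the numbers were not taken as pairs.

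The 5 genes, the gene lists and the measures were chosen with earlier results of these data known. The text names all 5 genes, every RefSeq gene reaching into their windows and the 6 stranded genes most like them in offsets. It also names, per list, the 4 genes with the largest and smallest Pol II difference.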

Additional observations from a re-analysis of the deposited data

Results flagged for a closer look

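At SCARNA2 and TERC the stack over the gene start moved in opposite directions for different antibodies between Control and IAA, in every numbered library with a peak there. By title the unnumbered Pol II libraries went the other way. The label Control had 198 times the background at SCARNA2 and 173 at TERC, and the label IAA 225 and 201. The library labelled EGF, whose deposited list carries IAA in its name, had 159 and 118 times, lower than Control at both genes. In the numbered libraries the ratio of IAA to Control at SCARNA2 was 0.252 for Pol II and 0.478 for Tyr1P, against 1.71 for Ser2P. At TERC it was 0.218 for Pol II, from 1 IAA library, and 0.373 for Tyr1P, against 1.59 for Ser2P. The difference between antibodies was not tested. Over all stranded genes the median ratios were 0.605, 0.561 and 1.92 for Pol II, Tyr1P and Ser2P, and 65.9% of 3979 genes with a start peak in all 8 Pol II and Ser2P libraries were lower for Pol II and higher for Ser2P. For Tyr1P and Ser2P the share was 85.9% of 5738 genes.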

How the results depend on the processing

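The nearest-summit differences kept their sign in 179 of the alternatives and turned in 6, all at SCARNA2 or TERC. The counts of genes called downstream were 3 to 4 for Pol II and 3 for Tyr1P and Ser2P when 1 library was left out. They were 2 of the genes with a value for Pol II and Ser2P within 1 kb, and 4 with groups apart by any amount. The unnumbered Control and IAA libraries, taken by title, were also added. The Pol II counts of genes called downstream, with a gained peak past the end and reaching less far upstream were then 0 each. The Pol II counts of genes called farther by distance were 0 in each list but the other snoRNA and scaRNA genes (2) and all genes (60), and the SCARNA2 reach difference was 3.33 bp. Taking same-numbered libraries as a replicate block, the Pol II, Tyr1P and Ser2P counts were 3 each and the SNORD118 Pol II difference 405 bp (exact permutation p = 0.5, the smallest it allows); no call changed. Among genes of at most 600 bp the background was 14.3% farther and 8.65% nearer for Pol II, 7.26% nearer for Tyr1P and 10.8% farther for Ser2P.

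Differences in reach turned with the peaks counted. For SNORD3A they were 1290.5 bp (Pol II), 1327 bp (Tyr1P) and 1015 bp (Ser2P) with peaks overlapping the gene, and 1290.5, 1327 and 1450.5 bp within 1 kb, where SNORD3C drops out. For TERC they were −256, −445.5 and −390 bp with either choice, since its downstream peak drops out. For SCARNA2 with Ser2P they were 96 bp with either choice and 874 bp within 5 kb. Peak midpoints gave nearest-peak differences of −187 bp (Tyr1P) and −151.5 bp (Ser2P) at TERC and 28.5 bp (Ser2P) at SCARNA2, and the cause was not tested.

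Leaving out 1 library moved the SCARNA2 summit difference from −3.5 to 33.5 bp for Pol II and from −5.5 to 3.5 bp for Ser2P. It moved the SCARNA2 reach difference from −19.5 to 9.5 bp for Pol II and from −629 to 106 bp for Ser2P. It moved the TERC reach difference from 1306 to 2612 bp for Tyr1P, and the SNORD3A Pol II stack ratio from 0.538 to 1.04. It moved the count of genes reaching less far upstream from 0 to 1 for Ser2P, and the count of lost start peaks from 0 to 1 for Pol II. The TERC Pol II summit difference was 51.5 bp within 1 kb and with lists of equal length. Depth is an estimate, and peaks below the calling threshold of a shallow library are not seen.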
